A study of Homo sapiens with 4 samples.

Results

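DNA damage sensors, checkpoint kinases and the ubiquitin ligase MDM2 were followed by reverse phase protein array (RPPA) through 18 of 440 antibodies. They were taken by name, as every antibody row for 10 proteins of the damage response, among them 53BP1, ATM, ATR, Chk1, Chk2, H2AX, MDM2, RPA32 and MERIT40. The rule uses no measured level, though it was chosen with earlier results of these data known. Of the 18, 8 recognise total protein and 10 a phosphorylated site (88 antibodies of the panel recognise a site). H2AX and MDM2 were seen through sites alone, and 53BP1 through total protein alone. Symbols of all 10 genes matched RefSeq, where Chk1 is CHEK1, Chk2 is CHEK2, RPA32 is RPA2 and MERIT40 is BABAM1.

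The cells were LN229, an established human glioblastoma line. There were 2 untreated samples labelled 0 min and 2 samples given salmon calcitonin (sCT), a peptide ligand of the calcitonin receptor, at 300 nM for 60 min. The series describes the duplicates as biological, and the labels name no transgene, knockdown or second agent in either group. As the untreated cells carry the 0 min label, sCT and the hour that passed cannot be told apart. On RPPA slides, lysates are printed in dilution series and each slide is probed with 1 antibody. The deposited values are linear relative levels with a median of 1 in each sample, so a level compares samples for the same antibody and says nothing of one antibody against another. Signal over background is unknown.

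DNA breaks and stalled replication forks are sensed by the large kinases ATM and ATR. ATM responds mainly to double-strand breaks and passes the signal to Chk2, while ATR responds to single-stranded DNA coated by the RPA complex and passes it to Chk1. Phosphorylated H2AX marks the damaged chromatin, 53BP1 and the MERIT40-containing BRCA1-A complex gather there, and MDM2 controls the stability of proteins that carry the signal onward. Setting sCT-treated against untreated cells asked which of these proteins and sites differed after 1 h.

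The changes were uneven across the pathway. Total 53BP1 fell 3.13-fold and total Chk1 2.99-fold, MDM2 phosphorylated at S166 fell 2.64-fold and Chk2 phosphorylated at T68 2.08-fold, and total MERIT40 rose 1.56-fold, whereas ATM, total ATR, total Chk2 and phosphorylated H2AX did not pass the test. At an adjusted p of 0.05 (limma over all 440 antibodies), 7 of the 18 were lower and 2 higher. Over the whole panel 55.0% of antibodies passed, 33.6% as lower and 21.4% as higher, so the 9 of 18 called here are a share close to the background. Among sites, 5 of 10 were lower and 0 higher, against 47.7% lower over all sites of the panel. An unadjusted p under 0.05 was reached by 6 of the 10, against 53 of all 88 sites, a like share. The median log2 fold change was -0.13 over the 18 and 0.02 over all antibodies. The groups did not overlap for 17 of the 18, a separation seen for 85.9% of the panel, and the remaining antibody was that to RPA32 phosphorylated at S4/S8. Of the 18, 5 met the thresholds named in the study's heatmap legend, an absolute log2 fold change of 0.58 with an unadjusted p of 0.05, against 21.6% of the panel.

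**Figure D1:**
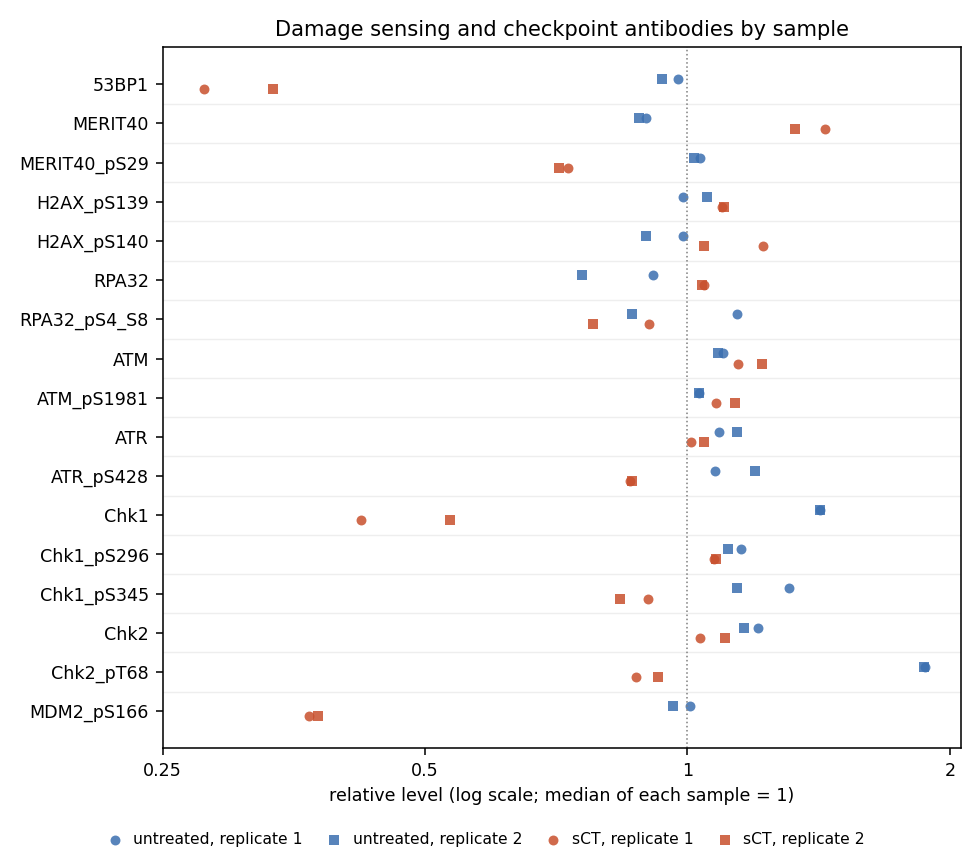
Relative level of 17 of the 18 antibodies (rows) in each of the 4 samples, on a log axis where the median of a sample is 1; blue marks are untreated and red marks sCT-treated samples. The widest gaps between the groups are those of 53BP1, Chk1, MDM2_pS166 and Chk2_pT68, and MERIT40 is the row in which sCT-treated samples lie furthest above untreated ones.

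Scaling bears on the small changes. Of 8 loading control antibodies (β-actin, GAPDH, detyrosinated α-tubulin, vinculin, cyclophilin F, porin, COX IV and histone H3), 3 were higher and 0 lower, with log2 fold changes from -0.15 to 0.57 and a median of 0.12. Centring each sample on them, each control taken relative to its own mean, moved the panel median from 0.02 to -0.12. It gave 11 lower and 1 higher of the 18, in place of 7 and 2. The share of the whole panel called under this centring was not counted, so the 11 and 1 have no background to be set against. At 2 samples per group the smallest exact two-sided permutation p for a single antibody is 0.333, so every call rests on the spread shared across the panel.

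Among the proteins that gather at breaks, the scaffold 53BP1, which shields broken ends from resection, showed the largest fall of the 18. Its level was 0.977 and 0.935 in untreated cells and 0.279 and 0.334 after sCT. All of the sCT-treated values lay far below the untreated ones, and the log2 fold change was -1.65 (SE 0.10, adjusted p = 0.000340), 3.13-fold lower and rank 18 among the falls of the 440 antibodies. The sCT replicates of 53BP1 differed by 0.26 log2 units, against a panel median of 0.06, which is small beside the change. Quantile normalization reduced the fall to -0.99 (adjusted p = 0.00152).

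MERIT40, a subunit of the BRCA1-A complex that recruits BRCA1 to ubiquitin marks at breaks, moved the other way. Total MERIT40 was 0.897 and 0.880 in untreated cells and 1.44 and 1.33 after sCT. This 1.56-fold rise was the largest of the 18 and rank 8 among the rises of the panel (log2 fold change 0.64, SE 0.06, adjusted p = 0.000945). Its phosphorylated form, at S29, a site that AKT can phosphorylate, had levels of 1.03 and 1.02 in untreated cells and 0.729 and 0.713 after sCT. Replicates of this site almost coincided, and it fell by 0.51 on the log2 scale (SE 0.04, adjusted p = 0.000868) while the total protein rose.

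Histone H2AX is phosphorylated on a C-terminal serine that is numbered 139 or 140, without or with the initiator methionine, and the panel held an antibody under each name. H2AX_pS139 read 0.988 and 1.05 in untreated cells and 1.10 and 1.10 after sCT, a log2 fold change of 0.11 (95% confidence interval -0.03 to 0.24, adjusted p = 0.134). H2AX_pS140 read 0.989 and 0.897 in untreated cells and 1.22 and 1.04 after sCT, a log2 fold change of 0.26 (0.00354 to 0.52, adjusted p = 0.0779). In both, the sCT-treated values were the higher ones and neither difference passed the adjusted threshold. With loading control centring H2AX_pS139 turned to -0.03 (adjusted p = 0.616) and H2AX_pS140 was 0.12.

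RPA32, the middle subunit of the RPA complex that coats single-stranded DNA, had total levels of 0.914 and 0.756 in untreated cells and 1.04 and 1.04 after sCT. The untreated replicates were further apart than for most antibodies, with only 35 of 440 wider. The rise of 0.32 on the log2 scale (SE 0.10, adjusted p = 0.0468) only just passed, and it was lost without untreated replicate 2 (0.19, adjusted p = 0.0636), with either sCT replicate left out (0.32, adjusted p = 0.179 without the first and 0.33, adjusted p = 0.176 without the second, so the size barely moved), under quantile normalization (0.60, adjusted p = 0.0670) and with loading control centring (0.19, adjusted p = 0.243). RPA32 phosphorylated at S4/S8, sites modified when replication stress persists, read 1.14 and 0.865 in untreated cells and 0.904 and 0.780 after sCT. Here the groups overlapped, and the log2 fold change of -0.24 (95% confidence interval -0.65 to 0.17, adjusted p = 0.227) was the least precise of the 18.

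The apical kinases changed little. Total ATM was 1.10 and 1.09 in untreated cells and 1.14 and 1.22 after sCT, a log2 fold change of 0.11 (95% confidence interval -0.03 to 0.25, adjusted p = 0.132). ATM phosphorylated at S1981, its autophosphorylation site, was 1.03 and 1.03 in untreated cells and 1.08 and 1.13 after sCT, a log2 fold change of 0.10 (-0.03 to 0.23, adjusted p = 0.134). Total and phosphorylated ATM thus shifted by nearly the same amount, and neither passed. Both turned to -0.03 and -0.04 with loading control centring. Total ATR read 1.09 and 1.14 in untreated cells and 1.01 and 1.04 after sCT (log2 fold change -0.12, 95% confidence interval -0.25 to 0.02, adjusted p = 0.109), and it passed with loading control centring (-0.25, adjusted p = 0.00942). ATR phosphorylated at S428 read 1.08 and 1.20 in untreated cells and 0.859 and 0.864 after sCT. The fall of this site by 0.40 on the log2 scale (SE 0.07, adjusted p = 0.00689) lost its call but not its size when either sCT replicate was left out (-0.39, adjusted p = 0.0578 without replicate 1 and -0.40, adjusted p = 0.0514 without replicate 2).

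Chk1, the kinase that ATR activates and that restrains entry into mitosis, was represented by 3 antibodies that did not move alike. Total Chk1 was 1.42 and 1.42 in untreated cells and 0.423 and 0.534 after sCT, a 2.99-fold fall (log2 fold change -1.58, SE 0.12, adjusted p = 0.000603). Quantile normalization reduced the change of total Chk1 to -1.10 (adjusted p = 0.00152). Its sCT replicates differed by 0.34 log2 units, a gap that 7 antibodies of the panel exceeded, yet both stood far below the untreated samples. The ATR target site S345 read 1.31 and 1.14 in untreated cells and 0.902 and 0.836 after sCT, a fall by 0.49 on the log2 scale (SE 0.08, adjusted p = 0.00810) that missed the threshold without sCT replicate 2 (-0.44, adjusted p = 0.0607). The autophosphorylation site S296 read 1.15 and 1.11 in untreated cells and 1.07 and 1.08 after sCT. Its log2 fold change of -0.08 (95% confidence interval -0.19 to 0.04, adjusted p = 0.201) did not pass, although it did with loading control centring (-0.21, adjusted p = 0.0222).

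Chk2, the kinase downstream of ATM, showed the opposite arrangement. Total Chk2 was 1.20 and 1.16 in untreated cells and 1.03 and 1.10 after sCT (log2 fold change -0.15, 95% confidence interval -0.29 to -0.000198, adjusted p = 0.0797; -0.28 and adjusted p = 0.0167 with loading control centring). Phosphorylation at T68, the site that ATM modifies to activate Chk2, read 1.87 and 1.87 in untreated cells and 0.873 and 0.924 after sCT. Untreated replicates were almost identical and the 2.08-fold fall (log2 fold change -1.06, SE 0.05, adjusted p = 0.000179) was called under every alternative run. Quantile normalization reduced it to -0.86 (adjusted p = 0.00153).

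MDM2, a ubiquitin ligase that marks other proteins for degradation, was measured at S166, a site that AKT can phosphorylate. MDM2_pS166 read 1.01 and 0.962 in untreated cells and 0.368 and 0.377 after sCT. Both groups were tight, and the 2.64-fold fall (log2 fold change -1.40, SE 0.05, adjusted p = 0.000131) had the smallest adjusted p of the 18. Quantile normalization reduced it to -0.87 (adjusted p = 0.00199). No total MDM2 level was analysed here, so the site cannot be set against its protein. All 7 AKT antibodies of the panel were looked up after the values of MDM2 and MERIT40 were seen. The AKT sites S473 and T308, under the name Akt, had log2 fold changes of -1.47 (adjusted p = 0.000523) and -1.04 (adjusted p = 0.000702), and total Akt was at 0.03 (adjusted p = 0.590; -0.11 with loading control centring). The antibodies to single AKT proteins differed from these and from each other. Akt1_pS473 was at -0.67 (adjusted p = 0.0359; -0.56 and adjusted p = 0.0554 under quantile normalization) and total Akt1 at 0.19 (adjusted p = 0.0223; 0.05 and adjusted p = 0.422 with loading control centring). Akt2_pS474 was at -0.15 (adjusted p = 0.0693; -0.29 and adjusted p = 0.00827 with loading control centring) and total Akt2 at -0.81 (adjusted p = 0.000486), so that Akt2_pS474 minus Akt2 rose by 0.66 (adjusted p = 0.000212). Their part in the levels of MDM2_pS166 and MERIT40_pS29 was not tested.

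**Figure D2:**
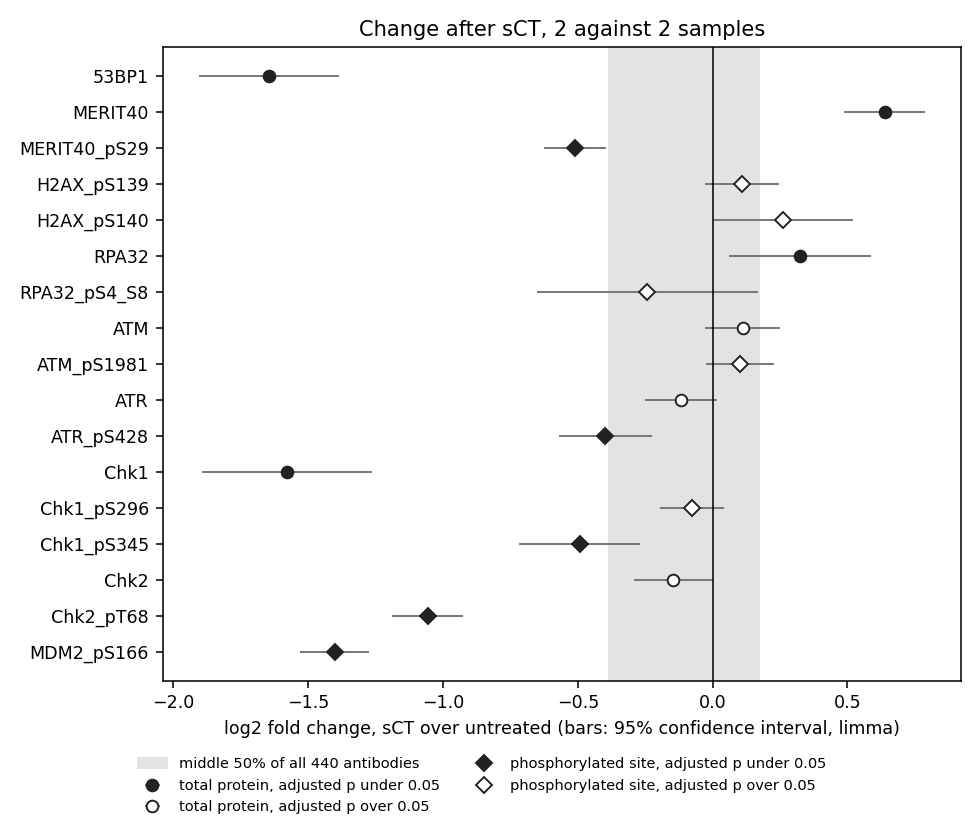
Log2 fold change of sCT-treated over untreated cells for 17 of the 18 antibodies, with 95% confidence intervals from limma (n = 2 per group); filled symbols passed an adjusted p of 0.05, circles are total protein, diamonds are sites, and the grey band holds the middle 50% of all 440 antibodies. 53BP1 at -1.65, Chk1 at -1.58, MDM2_pS166 at -1.40, Chk2_pT68 at -1.06 and MERIT40 at 0.64 lie furthest from 0.

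Sites were then set against their own proteins within each sample, for the 7 sites whose total protein was also on the panel. The difference of log2 levels, site minus total, was tested with limma over all 51 such pairs of the panel, of which 74.5% passed, and 6 of the 7 passed here. MERIT40_pS29 minus MERIT40 was 0.21 and 0.21 in untreated cells and -0.98 and -0.90 after sCT, a change of -1.15 (SE 0.07, adjusted p = 4.49e-05). Chk2_pT68 minus Chk2 was 0.64 and 0.69 in untreated cells and -0.24 and -0.26 after sCT, a change of -0.91 (SE 0.06, adjusted p = 7.03e-05). Chk2_pT68 fell further than its total, whereas the MERIT40 change joined a site change of -0.51 with a rise of the total by 0.64. RPA32_pS4_S8 minus RPA32 changed by -0.57 (SE 0.10, adjusted p = 0.00245), with 0.32 and 0.19 in untreated cells against -0.21 and -0.41, although by itself the total only just passed and the site did not. ATR_pS428 minus ATR changed by -0.28 (adjusted p = 0.0115), which missed the threshold with untreated replicate 2 left out (-0.24, adjusted p = 0.0738) and when an sCT replicate was omitted (-0.30, adjusted p = 0.0523 for the first and -0.26, adjusted p = 0.0944 for the second).

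Chk1 ran the other way, since its total fell further than its sites. Chk1_pS296 minus Chk1 rose from -0.30 and -0.35 in untreated cells to 1.34 and 1.01 after sCT. This change of 1.50 (SE 0.12, adjusted p = 0.000104; 1.01 under quantile normalization) was the second largest rise among the 51 pairs. Chk1_pS345 minus Chk1 went from -0.12 and -0.31 to 1.09 and 0.65, a change of 1.09 (SE 0.16, adjusted p = 0.00140; 0.70 under quantile normalization). The pair share the same total antibody, so they are not independent of each other. ATM_pS1981 minus ATM was the pair that did not pass, with a change of -0.01 (95% confidence interval -0.17 to 0.15, adjusted p = 0.873).

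**Figure D3:**
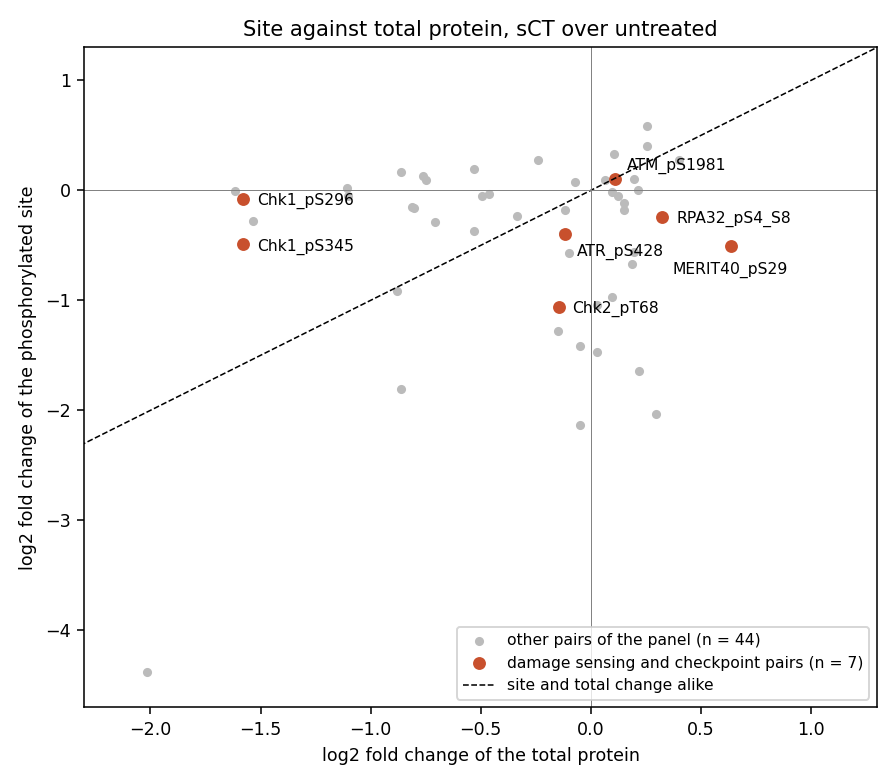
Log2 fold change of each phosphorylated site (vertical axis) against that of its total protein (horizontal axis), sCT-treated over untreated, for the 51 pairs of the panel; red points are the 7 pairs of damage sensing and checkpoint proteins and the dashed line marks equal change. Both Chk1 sites lie above the line, ATM_pS1981 lies on it, and the sites of MERIT40, Chk2, RPA32 and ATR lie below it.

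Other proteins of the damage response were described from a pair of lists. In the DNA repair list, 18 antibodies of the panel matched, with 8 lower and 4 higher (66.7% called, against the 55.0% above) and a median log2 fold change of -0.09. Falls among the largest changes were those of the mismatch repair proteins MSH6 (-1.92, adjusted p = 9.22e-05) and PMS2 (-1.38, adjusted p = 0.000176), of the excision repair proteins XPA (-1.69, adjusted p = 0.000151) and ERCC5 (-1.05, adjusted p = 0.000920), and of BRCA1 (-0.86, adjusted p = 0.000496), the partner of the MERIT40 complex. Among the 4 higher antibodies, named after their values were seen, were Rad50 at 0.43 (adjusted p = 0.00621), PARP at 0.34 (adjusted p = 0.0168) and DDB-1 at 0.28 (adjusted p = 0.00755). None of the 4 passed without sCT replicate 1, although Rad50 (0.39), PARP (0.31) and DDB-1 (0.27) kept most of their size, and the list then held 7 calls in place of 12. Without sCT replicate 2, 1 of the 4 passed, Rad50 (0.46, adjusted p = 0.0362). PARP (0.20, adjusted p = 0.122) also lost its call with loading control centring.

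The list of checkpoint outputs matched 18 antibodies, 7 lower and 4 higher (61.1% called), with a median log2 fold change of -0.13. Wee1, the kinase that holds CDK1 inactive, had a log2 fold change of -1.62 (adjusted p = 0.000184) and the Chk1 substrate cdc25C one of -0.90 (adjusted p = 0.000679). Aurora-A (-1.36, adjusted p = 0.000751) and PLK1 (-0.67, adjusted p = 0.0125; -0.57 and adjusted p = 0.0830 without sCT replicate 1), kinases of mitotic entry, were lower too, as was the replication licensing factor Cdc6 (-0.50, adjusted p = 0.00378; -0.22 and adjusted p = 0.110 under quantile normalization). Wee1 resembled Chk1, since its S642 site was at -0.01 (adjusted p = 0.926) and site minus total rose by 1.61, the largest rise of the 51 pairs. This pattern was not particular to checkpoint kinases. Tuberin_pT1462 was at 0.02 with total Tuberin at -1.11, and SHP-2_pY542 at -0.05 with total SHP2 at -1.10. Over all 51 pairs, 18 were called as higher and 20 as lower. The inhibitory CDK1 sites read -0.15 for CDK1_pT14 (adjusted p = 0.0987) and -0.12 for cdc2_pY15 (adjusted p = 0.292). Among outputs in growth arrest and cell death, the CDK inhibitor p21 was lower at -0.38 (adjusted p = 0.00332), while the metabolic regulator TIGAR was higher at 0.56 (adjusted p = 0.00231). Of the BCL2 family proteins on the list, Bax at 0.19 (adjusted p = 0.0213), Puma at 0.19 (adjusted p = 0.0223) and Bid at 0.20 (adjusted p = 0.0283) were higher. Bak, of the same family, was at 0.03 (adjusted p = 0.685) and its groups overlapped. With loading control centring Bax, Puma and Bid shrank to 0.06, 0.05 and 0.07 and lost their calls. They also missed the threshold whichever replicate was left out, at sizes near those above (0.17 to 0.21 for Bax, 0.16 to 0.22 for Puma and 0.17 to 0.24 for Bid). The list held 7 calls without untreated replicate 2, 6 without sCT replicate 1 and 7 without sCT replicate 2. p21, Bax, Puma, Bid, Bak and the CDK1 and Wee1 sites were named after their values were seen.

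**Figure D4:**
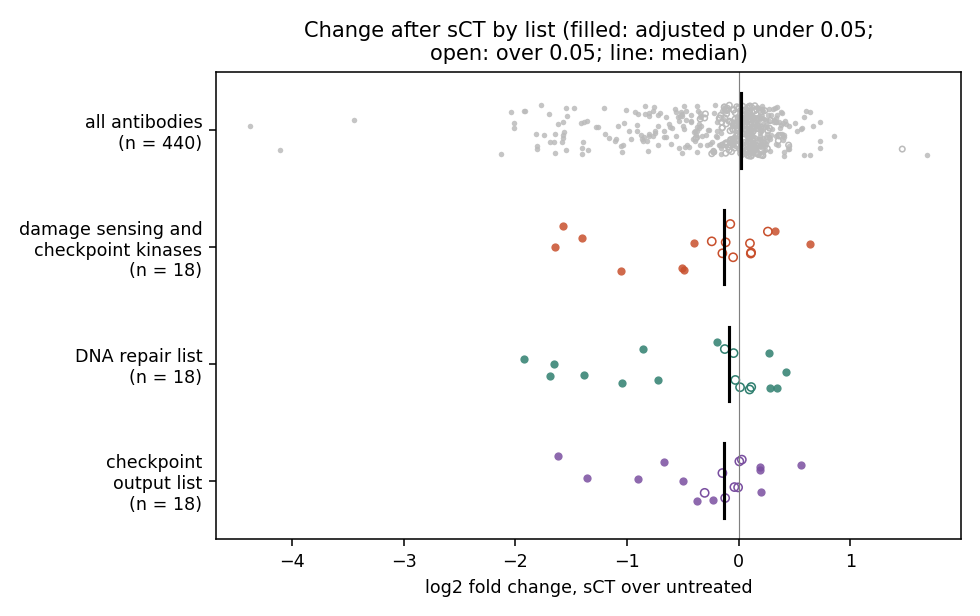
Log2 fold change of sCT-treated over untreated cells for all 440 antibodies, the 18 damage sensing and checkpoint antibodies, the 18 of the DNA repair list and the 18 of the checkpoint output list; filled points passed an adjusted p of 0.05 and black lines are medians. The medians are 0.02, -0.13, -0.09 and -0.13, and each list holds both falls beyond -1 and rises.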

How the data were processed

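RPPA was done in 4 samples of LN229 cells. In the methods, dilution series of each lysate were spotted on nitrocellulose, stained with DAB and scanned for spot intensity. The authors deposited linear ratios, that is relative levels per antibody and sample with a median of 1 in each sample. The steps between intensities and these levels are not given in the sources used here. The number of arrays limits the precision.

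Members were matched by antibody name without case and hyphens, and all 440 rows were kept. Members, lists and tests were chosen with earlier results of these data known. Levels were taken to log2 with no pseudocount and compared by limma version 3.58.1 under R version 4.3.3, without covariates (lmFit, then eBayes; 2.59 prior and 2 residual degrees of freedom), two-sided, with Benjamini-Hochberg adjustment over all 440 antibodies. Site minus total differences were fitted in the same way over 51 pairs. The steps were tested on simulated data. Of the 18 members and the context lists, 1 member and 3 repair antibodies are counted but not reported by name here. All other member rows are named. From each context list the 6 called antibodies with the largest change are named, with that exception. A planned ranking of antibodies by nearness in level was dropped, since relative levels do not compare different antibodies. Of 32 names on the repair list 18 matched a whole protein name of the panel, and of 34 on the checkpoint list 17 did. A protein that the panel names differently was missed, as was p38, present there as p38-MAPK. Alternatives were quantile normalization, centring on loading controls, linear levels, a trended and robust eBayes, a filter on the lowest 10% of mean levels, omission of each replicate, and a replicate block. Protein lengths and sequences were not used here.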

Additional observations from a re-analysis of the deposited data

How the results depend on the processing

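Of the 9 antibodies called, 6 (53BP1, Chk1, Chk2_pT68, MDM2_pS166, MERIT40 and MERIT40_pS29) kept call and direction under every alternative run. 53BP1 and MDM2_pS166 lie in the lowest 10% of mean levels, so a filter on these gave no value for them and lowered the count at the heatmap thresholds from 5 to 3. MSH6, PMS2 and Wee1 of the context lists were filtered out too, and with Wee1 the pair Wee1_pS642 minus Wee1. ATR_pS428 (without either sCT replicate) and Chk1_pS345 (without sCT replicate 2) missed the threshold with fewer samples only, and RPA32 also under both scalings and the block. Without an sCT replicate, ATR_pS428 stayed at -0.39 and -0.40 and RPA32 at 0.32 and 0.33. With each replicate left out in turn, where the spread of a lone sample is taken from the others, the number of members called was 6 to 9, members at the heatmap thresholds 5 to 6, calls on the repair list 7 to 11, calls on the checkpoint list 6 to 9 and site minus total calls 5 to 6. Fewer samples leave fewer degrees of freedom, yet most kept pair calls had a smaller adjusted p, so they are no sign of stability.

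With relative loading control centring, ATM turned to -0.0252, ATM_pS1981 to -0.0357, H2AX_pS139 to -0.0282 and Akt to -0.11, and quantile normalization turned Wee1_pS642 to 0.0373. With each replicate left out, Wee1_pS642 ran from -0.0428 (without untreated replicate 1) to 0.0319 (without untreated replicate 2), and ATM_pS1981 minus ATM from -0.0223 (without sCT replicate 1) to 0.00127 (without sCT replicate 2). The cause was not tested. None of these was called in the unaltered fit or where its sign turned, but Wee1_pS642 was called with loading control centring (-0.14, adjusted p = 0.0433). Linear levels and eBayes with trend and robust estimation changed the call of none of the 18 antibodies and 7 pairs. Of the falls in the context lists, quantile normalization left MSH6 at -1.18, PMS2 at -0.92, ERCC5 at -0.69 and Wee1 at -1.07, and it raised TIGAR to 0.99.

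The labels number the replicates in each group but do not pair them. Replicate differences correlated between the groups with r = 0.586 across antibodies. With the replicate number as a block, 9 members were again called, and the panel share was not counted. H2AX_pS140 gained a call (adjusted p = 0.0232) and RPA32 lost it (adjusted p = 0.0620). No other call among the 18 antibodies and 7 pairs changed. Called pairs had a far smaller adjusted p with the block (4.10e-24 against 0.000104 for Chk1_pS296 minus Chk1), again no sign of stability. Signal over background is unknown, so a low level of 53BP1, MDM2_pS166, MSH6, PMS2 or Wee1 after sCT cannot be told from background.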
